A study of Mus musculus with 8 samples.

Results

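Intron peaks of short genes are the subject here: stretches of intron RNA, in protein-coding genes shorter than 15 kb, that were called as enriched over input after immunoprecipitation from mouse liver nuclei. A peak was taken when its midpoint lay in no annotated exon of any gene, inside the body of 1 protein-coding gene under 15 kb and in no other protein-coding gene (GENCODE vM21, mm10). The rule found 4174 of the 206501 peaks in the 4 deposited lists, namely 682 of 38209 in fasted liver, 1111 of 61737 after 2 h of re-feeding, 1095 of 50609 after 10 h of re-feeding, and 1286 of 55946 in the IgG control. The rule used gene length and peak position and no measured value. The livers came from wild type C57BL/6 mice aged 14 weeks, which had been trained to eat in the dark phase only. Anti-NONO immunoprecipitates (RIP) were made from fasted livers at ZT10 (zeitgeber time, hours after lights on), at ZT14 after 2 h of re-feeding and at ZT22 after 10 h of re-feeding, so that feeding state and clock time changed together and cannot be told apart. An IgG immunoprecipitate, whose feeding state the labels do not give, served as the control for all 3 times, and each of the 4 RIP libraries had its own input, which makes 8 libraries. Every library pooled 2 experiments and each group had 1 library, so no difference below has a replicate check and no test between groups was made. The RIP libraries held 18275033 to 21091048 tags, and the authors called a peak at 11 tags or more (8 in the IgG library) and 2-fold or more over input. These limits of 11 and 8 tags are counts in the library, before the scaling used for the tag values below.

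NONO is an RNA- and DNA-binding protein of the DBHS family, known as a core protein of paraspeckles, nuclear bodies that form on the long non-coding RNA Neat1. It works with SFPQ and PSPC1 in pre-mRNA processing and nuclear retention of RNA, and it is also a partner of the PER proteins of the circadian clock. Introns are present in nuclear RNA for as long as the pre-mRNA is unspliced, so a RIP from nuclei reads intron RNA as well as exons. Short genes offer little intron to such an assay, and many genes that hepatocytes transcribe at a high rate, such as those for plasma proteins, are short.

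The sequences of the peaks themselves could not be read, but some of the peaks covered small RNA genes or gene starts whose sequence is in RefSeq (GRCm38.p6) or GENCODE vM21. Of the 4174 peaks, 28 covered at least 1 base of 27 small RNA genes, made up of 15 annotated as miRNA, 11 as snoRNA and 1 as snRNA. Mature miRNAs of 3 hosts are shown as examples of hairpins that lay whole or in part under a NONO peak, with the seed (bases 2 to 8) in capitals. Hairpins in other hosts, such as Ctdsp1 and Tatdn2, also lay under NONO peaks and are not shown. Zranb2, which encodes a splicing factor, carried miR-186 on chromosome 3, Gm11146 lay antisense to let-7c-1 and miR-99a on chromosome 16, and Mcm7, a subunit of the replicative helicase, carried miR-106b and miR-93 on chromosome 5.
mmu-miR-186-5p: cAAAGAAUucuccuuuugggcu
mmu-miR-186-3p: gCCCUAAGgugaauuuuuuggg
mmu-let-7c-5p: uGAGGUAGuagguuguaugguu
mmu-miR-99a-5p: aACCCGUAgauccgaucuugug
mmu-miR-106b-5p: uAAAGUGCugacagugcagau
mmu-miR-93-5p: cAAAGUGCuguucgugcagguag

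The seeds of miR-106b-5p and miR-93-5p are the same, and a single weak 2 h peak covered the whole hairpin of the first and part of that of the second, with 5.22 tags at chr5:138165576-138166076, which an IgG peak overlapped. Tags are the authors' normalised tags, counted per 10000000 tags of the library. The Zranb2 peak over miR-186 had 266.5 tags at 2 h (chr3:157543387-157545626), 130.8 tags at 10 h and 59.0 tags with IgG, so the same hairpin was also covered in the control. The Gm11146 peak over let-7c-1 had 129.3 tags in fasted liver and 234.2 tags at 10 h, where it also reached miR-99a, and no IgG peak overlapped either one. At 2 h a peak of 139.4 tags spanned both miRNA genes (chr16:77595413-77601223); it did not meet the rule, and an IgG peak overlapped it. Both miRNAs run on the strand opposite to Gm11146, and the peaks carry no strand, so these tags cannot be given to the host or to the miRNA transcript.

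The snoRNAs shown lie inside introns of ribosomal protein genes and of Odc1 (ornithine decarboxylase, the first enzyme of polyamine synthesis), with the bases under the peak in capitals. They were picked to show how a peak can hold a small RNA whole, or only in part.
Snord15a in Rps3, 2 h peak: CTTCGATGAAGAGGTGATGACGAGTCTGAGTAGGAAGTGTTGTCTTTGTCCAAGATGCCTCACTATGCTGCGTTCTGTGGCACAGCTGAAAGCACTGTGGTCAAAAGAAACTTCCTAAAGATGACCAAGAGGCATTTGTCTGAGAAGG
Gm27326 in Rpl23, fasted peak: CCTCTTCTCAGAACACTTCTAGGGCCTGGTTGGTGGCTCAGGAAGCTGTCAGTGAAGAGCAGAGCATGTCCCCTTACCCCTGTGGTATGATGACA
Gm22748 in Odc1, 10 h peak: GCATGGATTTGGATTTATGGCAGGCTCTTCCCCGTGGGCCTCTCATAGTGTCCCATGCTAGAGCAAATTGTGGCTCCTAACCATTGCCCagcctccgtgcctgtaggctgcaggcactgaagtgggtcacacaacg
Gm22748 in Odc1, IgG peak: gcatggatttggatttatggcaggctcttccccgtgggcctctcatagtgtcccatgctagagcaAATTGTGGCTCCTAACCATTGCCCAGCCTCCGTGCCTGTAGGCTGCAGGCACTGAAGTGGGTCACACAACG

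The Rps3 peak had 25.1 tags and 4.59-fold over input at 2 h, and covered all 148 bases of Snord15a on chromosome 7. The Rpl23 peak had 50.9 tags in fasted liver and 2.06-fold over input, and covered all 95 bases of Gm27326 on chromosome 11. In Odc1 the 10 h peak (91.9 tags) ended inside the snoRNA gene after 89 of its 136 bases, and the IgG peak (91.1 tags) began inside it and held 71 of them, so the NONO and IgG peaks met over the snoRNA alone.

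The window of 250 bases before the RefSeq start of a Per1 transcript that begins downstream of the first exon of the gene lay whole within the fasted peak, and is shown because Per1 is a core clock gene. Its 1 E-box (CACGTG, a palindrome, so 1 search covers both strands), the motif bound by CLOCK and BMAL1, is in capitals.
Per1 chr11:69098699-69098948 (+): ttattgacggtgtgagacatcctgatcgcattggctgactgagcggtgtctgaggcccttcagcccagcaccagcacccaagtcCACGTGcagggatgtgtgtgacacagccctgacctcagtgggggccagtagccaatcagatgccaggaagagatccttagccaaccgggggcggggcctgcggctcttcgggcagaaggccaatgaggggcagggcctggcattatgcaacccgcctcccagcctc

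The same 6 letters occur in 1978 of 32851 RefSeq windows of this length (6.02%), and the match is a description only. The fasted peak over this window (chr11:69098515-69099015) had 20 tags against 9.47 input tags, and an IgG peak overlapped it.

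Intron peaks of short genes made up a small part of each list. Their share was 1.78% in fasted liver (95% exact binomial interval 1.65 to 1.92%), 1.80% at 2 h (1.70 to 1.91%), 2.16% at 10 h (2.04 to 2.29%) and 2.30% with IgG (2.18 to 2.43%). Intervals here and below cover counting error only. The 10093 genes under 15 kb hold 36.0 Mb of intron, which is 3.94% of the intron bases of protein-coding genes, but they held 2.15% (fasted), 2.19% (2 h), 2.64% (10 h) and 2.78% (IgG) of the intron peaks. Per Mb of intron they carried 19.0 peaks in fasted liver, 30.9 at 2 h, 30.5 at 10 h and 35.8 with IgG. Genes of 15 to 300 kb carried 44.4, 73.1, 58.0 and 63.9 peaks per Mb in the same order of lists, so the short genes had fewer than the middle class in every list, the control included. Genes over 300 kb carried 18.4, 25.9, 23.7 and 27.5 peaks per Mb. With each list cut to its 38209 best-scoring peaks, short-gene introns numbered 682, 763, 841 and 978, so the 10 h list then stood above the 2 h list.

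Most of the NONO peaks in short-gene introns had no IgG peak over them. In fasted liver 549 peaks (80.5%, 77.3 to 83.4%) were free of any IgG peak, beside a background of 66.3% over all peaks of that list. At 2 h the count was 842 (75.8%, 73.2 to 78.3%) beside 60.7% over all peaks, and at 10 h it was 811 (74.1%, 71.4 to 76.6%) beside 60.5%. In introns of genes of 15 to 300 kb the share was 66.2%, 61.0% and 60.3% at the 3 times, and in genes over 300 kb it was 57.5%, 51.4% and 52.6%. The short-gene share was therefore the highest of the 3 length classes at every time, by more than counting error. Looked at from the control, 817 of the 1286 IgG peaks (63.5%, 60.8 to 66.2%) met no NONO peak, against 38.5% over all IgG peaks. Thus the NONO and IgG lists met less often over short-gene introns in both directions. Short genes also carry fewer peaks per Mb of intron in every list, as given above, and their peaks were narrower in the NONO lists, with a median width of 500, 626 and 626 bp against 626, 740 and 647 bp in genes of 15 to 300 kb. The part of peak density and width in the overlap was not tested.

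**Figure D1:**
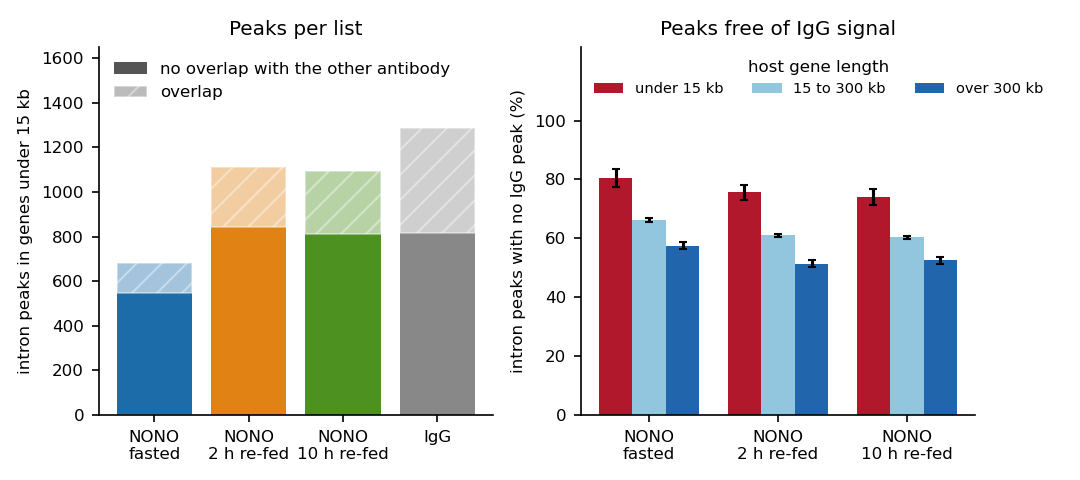
Left, number of intron peaks in genes under 15 kb per list, with the peaks that met no peak of the other antibody in solid colour (for IgG, of no NONO list) and the rest hatched. Right, percentage of NONO intron peaks with no IgG peak by host gene length, with 95% exact binomial intervals; the bars of genes under 15 kb are at 80.5%, 75.8% and 74.1% and stand highest at each time.

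Single peaks were weak. The median peak held 16.6 tags in fasted liver, 15.2 at 2 h, 17.0 at 10 h and 12.6 with IgG, beside 17.1, 17.1, 18.1 and 11.1 over all peaks of each list. The quartiles were 10.9 and 28.5 tags in fasted liver, 9.48 and 30.3 tags at 2 h, 10.4 and 32.0 tags at 10 h, and 7.90 and 24.2 tags with IgG. A single IgG peak, over the 7SK RNA gene, took 37.5% of that library, and counted per 10000000 tags outside it the median IgG peak in short-gene introns held 20.2 tags. The order of NONO and IgG medians therefore depends on how the IgG library is scaled. The deposited fold over input, also scaled on whole libraries, had a median of 2.81 in fasted liver, 2.95 at 2 h, 2.84 at 10 h and 3.33 with IgG. In genes of 15 to 300 kb the median fold was 2.79, 3.07 and 2.81 at the 3 times and 4.16 with IgG, so short-gene introns stood lower in the IgG list and close to this class in the NONO lists. In genes over 300 kb it was 2.98, 3.56 and 2.97 at the 3 times and 4.51 with IgG, above short-gene introns in every list. At 3-fold or more were 294 fasted peaks (43.1%, background 44.4%), 530 at 2 h (47.7%, background 53.9%), 483 at 10 h (44.1%, background 43.6%) and 751 with IgG (58.4%, background 73.8%). The NONO shares of short-gene introns were near the background in fasted liver and at 10 h. The 2 h share (44.7 to 50.7%) and the IgG share (55.6 to 61.1%) were below it.

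Input RNA over the peaks is part of that fold. The median input level per kb of peak in short-gene introns was 9.46 tags in fasted liver, 8.00 at 2 h, 9.31 at 10 h and 6.11 with IgG, against 9.44, 6.94, 9.03 and 3.78 in genes of 15 to 300 kb and 7.80, 4.89, 7.56 and 3.06 in genes over 300 kb. Input over the IgG peaks was thus highest in short-gene introns and lowest in genes over 300 kb. RIP tags per kb of peak were 25.8, 23.8, 25.9 and 20 in short-gene introns, against 25.9, 21.1, 25.2 and 15.2 in genes of 15 to 300 kb. NONO peaks with no IgG peak held fewer tags than those with one, with medians of 16.2 and 19.0 tags in fasted liver, 13.7 and 23.7 tags at 2 h and 15.3 and 23.5 tags at 10 h.

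**Figure D2:**
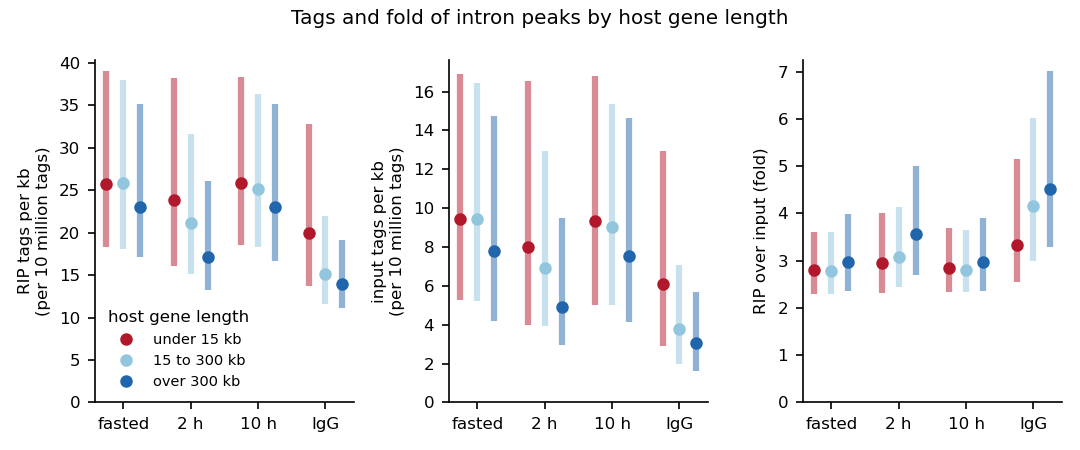
Median (point) and quartiles (bar) of RIP tags per kb of peak, input tags per kb and fold over input for intron peaks, by host gene length and list. For NONO the short-gene medians of fold lie between 2.81 and 2.95, close to genes of 15 to 300 kb, and for IgG the short-gene median of 3.33 is the lowest of the 3 classes.

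NONO peaks lay in the longer introns of the short genes. In genes with more than 1 intron, 57.6% of fasted peaks (53.7 to 61.5%), 54.8% of 2 h peaks (51.8 to 57.9%) and 57.0% of 10 h peaks (54.0 to 60.0%) were in the longest intron, which held on average 48.7%, 48.1% and 46.9% of the host's intron bases. Base shares in this paragraph are means over peaks, so a host counts once for each of its peaks. IgG peaks were there in 42.5% of cases (39.8 to 45.3%), with 46.0% of bases. The NONO share lay above its base share at every time and the IgG share lay below. The intervals take peaks as independent, although some share a host, and the IgG upper limit of 45.3% was close to the base share of 46.0%. The intron around a peak had a median length of 2440 bp in fasted liver, 2249 bp at 2 h, 2265 bp at 10 h and 1628 bp with IgG, and the nearest exon was 656, 571, 655 and 418 bp from the peak's midpoint. First introns held 25.4%, 29.6% and 24.8% of NONO peaks and 26.2% of IgG peaks in these genes, beside 24.4%, 25.1% and 22.01% of bases for NONO and 22.8% for IgG. In all 4 lists the midpoint lay nearer to the 5′ than to the 3′ end of the gene, in 62.5%, 63.1%, 62.6% and 59.3% of cases. The rule bars midpoints in exons, and the share of intron bases nearer to the 5′ end was not computed. These percentages therefore have no background and cannot be read as a preference of the peaks.

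Many peaks of short genes also reached exons. A call is at least 500 bp wide, and the part of peak width and exon distance in this was not tested. At least 1 exon base was covered by 19.6% of fasted peaks, 25.1% of 2 h peaks, 19.3% of 10 h peaks and 34.3% of IgG peaks, against 9.36%, 12.1%, 8.40% and 12.1% in genes of 15 to 300 kb. Peaks that ran out of their intron numbered 124 in fasted liver, 261 at 2 h, 197 at 10 h and 421 with IgG. Tags over exon bases are part of the values of such peaks, most often in the IgG list. Of all 4174 peaks, whether or not they reached exons, 192 had a non-coding gene at their midpoint as well as the host. The tags of host and non-coding gene cannot be told apart there without strand. The same share for longer genes was not computed.

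**Figure D3:**
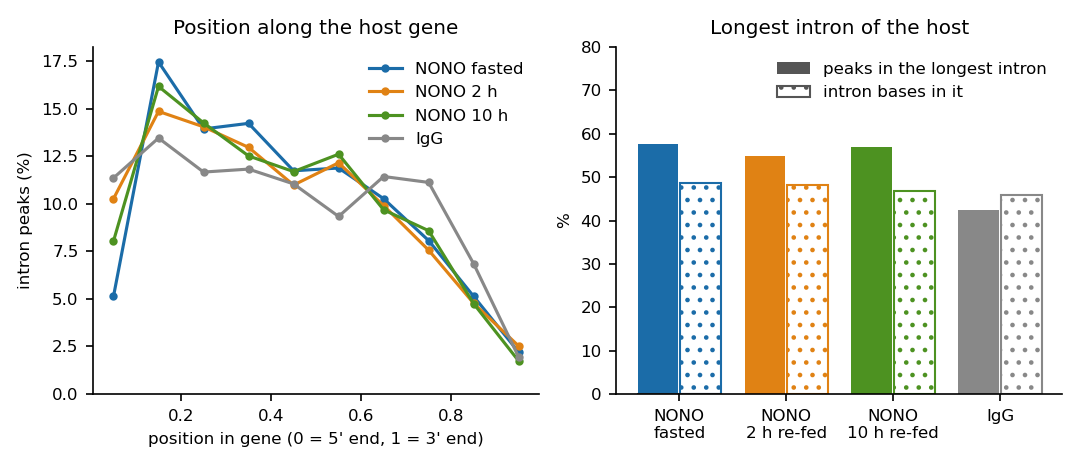
Left, percentage of intron peaks in each of 10 equal bins of the host gene from its 5′ to its 3′ end, by list. Right, percentage of peaks in the longest intron of genes with more than 1 intron (solid) beside the percentage of the host's intron bases in it, as a mean over peaks (dotted). The 3 NONO bars stand above their base share at 57.6%, 54.8% and 57.0%, and the IgG bar stands below it at 42.5%.

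The peaks lay in 565 host genes in fasted liver, 847 at 2 h, 832 at 10 h and 971 with IgG, which is 5.60%, 8.39%, 8.24% and 9.62% of the 10093 short genes. Of genes of 15 to 300 kb, 41.2%, 47.0%, 45.3% and 46.4% had an intron peak. Most hosts had a single peak, in 82.3%, 75.8%, 75.1% and 75.8% of cases, and the most in 1 gene was 4, 4, 5 and 6. The 10 hosts with most tags held 18.1%, 16.7%, 19.1% and 26.2% of the tags in these peaks. Over the 4 lists 1664 genes were hosts, 1337 of them in a NONO list, and 241 at all 3 times, which is 42.7% of fasted hosts, 28.5% of hosts at 2 h and 29.0% of those at 10 h. Of the 241, 153 were IgG hosts too, and 63 had no IgG peak anywhere over the gene. Between times the 2 h and 10 h lists shared 476 hosts (56.2% of 2 h and 57.2% of 10 h hosts), the fasted and 2 h lists 334 (59.1% of fasted and 39.4% of 2 h hosts), and the fasted and 10 h lists 338 (59.8% of fasted and 40.6% of 10 h hosts). With IgG the fasted list shared 287 hosts, the 2 h list 436 and the 10 h list 451, which is 50.8%, 51.5% and 54.2% of the NONO hosts. Host overlaps of longer genes are not given here, so these shares have no background.

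Single peaks recurred less often than hosts. A peak of any kind in both other NONO lists overlapped 129 fasted peaks (18.9%, background 27.3%), 133 peaks at 2 h (12.0%, background 17.4%) and 143 at 10 h (13.1%, background 20.8%). Neither other time had a peak over 339 fasted peaks (49.7%, background 36.5%), 638 at 2 h (57.4%, background 48.3%) and 600 at 10 h (54.8%, background 38.5%). Peaks of short-gene introns thus recurred less often than peaks in general in all 3 lists. The peaks that did recur held more tags, with a median of 30.0 tags against 13.8 tags in fasted liver, 33.7 against 11.9 at 2 h and 33.4 against 13.7 at 10 h for those at neither other time. They were also wider, with a median of 796, 964 and 934 bp at the 3 times against 500 bp each time. Tags are summed over the peak and a wider peak meets others more easily, and the part of width was not tested. Hosts at only 1 of the 3 times numbered 134, 278 and 259, and 100, 226 and 215 of these had no peak of any kind over the gene at the other times. These host counts have no background from longer genes.

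The 8 genes described next had intron peaks at all 3 times and no IgG peak anywhere over the gene. They were chosen for this, ranked by their lowest tag value over the times, and Ahsg led them. Ahsg encodes fetuin-A, a plasma glycoprotein made by hepatocytes, in a gene of 8173 bp on chromosome 16. Its peak in intron 3 of 7 had 895.3 tags against 314.6 input tags in fasted liver (chr16:22892498-22894151), 1291.1 against 508.0 at 2 h, and 1595.6 against 607.4 at 10 h. RIP and input were thus lowest fasted and highest at 10 h, and the deposited fold was 2.85, 2.54 and 2.63. The antisense gene Gm30505 lies over the same bases and cannot be told apart from Ahsg.

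Thoc7 encodes a subunit of the THO complex, which couples transcription to mRNA export. Its intron 5 peak had 262.0 tags against 59.5 input tags in fasted liver, 274.5 against 60.2 at 2 h and 279.1 against 43.3 at 10 h, at 4.41, 4.56 and 6.44-fold. These tags were level over the 3 times, and the fold was far above the median of short-gene introns, but the peak covered 999, 1232 and 1022 exon bases. Mcts1, a translation re-initiation factor on chromosome X, had 263.9, 244.7 and 303.7 tags in 3, 3 and 4 intron peaks. Ces3a, a liver carboxylesterase, had 134.6, 260.8 and 264.8 tags in 1 peak over its first intron, and its neighbour Ces3b had 109.4, 94.8 and 233.6 tags. Both carboxylesterases are close copies of each other, and how reads were split between them is not known. Mbl2, a mannose-binding lectin of the complement system, had 97.5, 76.3 and 77.2 tags, Surf4, a cargo receptor of the secretory pathway, 78.0, 93.9 and 70.6 tags, and Ndufb3, a subunit of respiratory complex I, 50.9, 92.4 and 85.3 tags.

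Ccn6 and Zfp799 were among the genes with the highest folds. Ccn6, a secreted matricellular protein gene, had a peak in its 5036 bp first intron with 34.2 tags against 2.63 input tags in fasted liver and 42.7 against 3.78 at 10 h, which is 13.0 and 11.3-fold. It had no peak at 2 h or with IgG, and input this low makes the ratio imprecise. Zfp799, a zinc finger gene, had 304.3 tags against 47.9 input tags in fasted liver, 211.9 against 24.9 at 2 h and 273.6 against 39.6 at 10 h. Its main peak in intron 1 stood at 6.61, 8.51 and 7.86-fold and was 3492, 4008 and 3156 bp wide. A weak IgG peak of 8.95 tags lay over the same intron, so all 4 lists marked this stretch, the control at the lowest tag level. The IgG peak stood at 8.84-fold, above the main NONO peak at every time, although its low input makes that ratio imprecise. F2, which encodes prothrombin, had 160.2, 321.5 and 418.1 tags in 2, 3 and 3 intron peaks, and its intron 7 peak reached 5.77-fold at 10 h with 128.6 tags. F2 had no IgG intron peak, although 1 IgG peak of another kind lay over the gene.

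**Figure D4:**
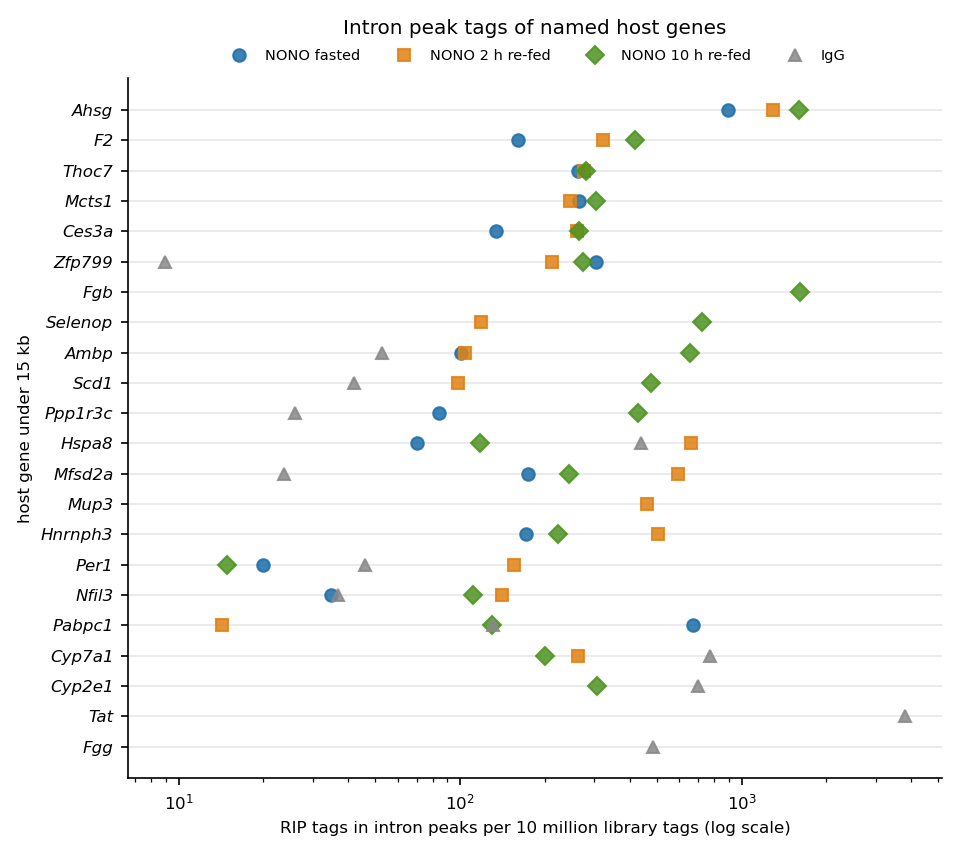
Summed tags of intron peaks per host gene (log axis, per 10000000 library tags) for named genes; circles are fasted, squares 2 h, diamonds 10 h and triangles IgG, and a gene with no peak in a list has no point for it. Ahsg has 3 NONO points from 895.3 to 1595.6 and no IgG point, and Tat and Fgg have IgG points only.

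The genes that differed most between times were chosen by that difference, which is given as a description. The genes that led at 10 h included Ahsg and Sf1, whose values are given elsewhere. Fgb, the fibrinogen beta chain, had 1607.7 tags against 776.1 input tags at 10 h (2.07-fold, just over the 2-fold limit) and no peak in any other list. Selenop, the selenium carrier of plasma, had no fasted peak, 118.5 tags at 2 h and 722.3 against 339.0 input tags at 10 h, in different introns (1 and 4). Ambp, the precursor of alpha-1-microglobulin and bikunin, had 100.3, 103.8 and 655.0 tags at the 3 times and 52.6 with IgG. Scd1, the stearoyl-CoA desaturase of fat synthesis, had no fasted peak, 98.6 tags at 2 h and 475.0 at 10 h, and 42.1 with IgG. Ppp1r3c, which targets protein phosphatase 1 to glycogen, had 84.2 tags fasted, 426.8 at 10 h and 25.8 with IgG, while its only 2 h peak, of 133.7 tags, did not meet the rule. In Selenop, Ambp, Scd1 and Ppp1r3c the input over the peaks was also highest at 10 h, and no 10 h peak of these 5 genes stood above 2.62-fold.

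The genes with the largest differences at 2 h were led by Cabyr. This calcium-binding protein gene, known from sperm, had 102.2 tags fasted, 745.4 tags against 323.7 input tags in 4 peaks at 2 h, 93.0 tags at 10 h and 131.1 with IgG, and IgG peaks overlapped all 4. Hspa8, the constitutive HSC70 chaperone, had 70.3 tags fasted, 660.9 tags against 297.8 input tags at 2 h, 117.7 tags at 10 h and 438.5 with IgG; its 2 h and IgG peaks overlapped. Mfsd2a, a lysophosphatidylcholine transporter, had 174.5 tags fasted, 592.2 at 2 h and 243.0 at 10 h, with 23.7 with IgG. Its input was 64.7, 265.9 and 87.1 tags at the 3 times, and an IgG peak overlapped its largest 2 h peak, of 425.3 tags. Sf1, the splicing factor that binds the branch point, had 31.9 tags fasted, 493.1 at 2 h and 567.5 at 10 h and no IgG intron peak. Its input over the peaks was 9.49, 218.6 and 207.4 tags. Hnrnph3, an hnRNP splicing regulator, had 171.6, 504.0 and 222.2 tags against 75.8, 242.5 and 103.5 input tags. Mup3 had 462.3 tags at 2 h alone, but the major urinary protein genes are near-identical copies and the split of reads among them is uncertain. Fasted liver led in Pabpc1, the cytoplasmic poly(A)-binding protein gene, with 672.3, 14.2 and 130.3 tags at the 3 times and 130.6 with IgG, although the size of the gap to 2 h rests on the midpoint rule. A 2 h peak of 520.6 tags over both fasted Pabpc1 peaks did not meet the rule, and it stood at a log2 ratio of -0.33 and -0.94 to them in tags per kb. Over all kinds of peak Pabpc1 had 784.0, 534.8 and 230.4 tags. BC005537 likewise had 280.0, 148.4 and 43.2 tags in intron peaks and 24.2 with IgG, but 379.8, 418.2 and 752.3 tags over all kinds of peak, so the fasted lead turned round. Clk1, a kinase of SR splicing factors, was lowest at 2 h, with 184.9, 42.2 and 274.7 tags, and had 86.9 with IgG, also over all kinds of peak (184.9, 94.8 and 456.4 tags, and 163.2 with IgG). The Pabpc1 fasted value came mainly from a peak of 5586 bp that covered 3025 exon bases, and so is not purely an intron value. At 2 h the Clk1 tags were in its first intron, and the peaks in introns 3 and 6 at the other times overlapped IgG peaks.

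Most peaks that overlapped between times differed by less than 2-fold. In each pair of times, overlapping peaks with at least 1 of the pair in a short-gene intron were compared by RIP tags per kb of peak, so the width of each peak enters the ratio, and the pairs share lists, so they are not independent. Of 236 overlaps of 2 h with fasted, 11 (4.66%, background 2.34%) were 2-fold or more higher and 21 (8.90%, background 8.08%) lower. Of 255 overlaps of 10 h with fasted, 6 (2.35%, background 3.39%) were higher and 13 (5.10%, background 5.34%) lower. Of 411 overlaps of 10 h with 2 h, 16 (3.89%, background 4.69%) were higher and 14 (3.41%, background 2.05%) lower, a balance that turned to 4 higher and 10 lower in genes under 10 kb. The median log2 ratio was -0.17, -0.07 and 0.02 in the 3 comparisons, with -0.26, -0.18 and -0.06 for the input. Over all overlapping peaks it was -0.25, -0.12 and 0.13, with -0.37, -0.19 and 0.18 for the input. Input moved 2-fold or more the same way in 11 of 11 higher and 21 of 21 lower peaks at 2 h over fasted, 5 of 6 and 10 of 13 at 10 h over fasted, and 15 of 16 and 13 of 14 at 10 h over 2 h. Over all overlapping peaks it did so in 404 of 469 higher and 1540 of 1620 lower at 2 h over fasted. The counts were 496 of 527 and 769 of 829 at 10 h over fasted, and 1239 of 1300 and 512 of 567 at 10 h over 2 h. Input thus moved with RIP in most such peaks of every kind. Since every call needs at least 2-fold over input, RIP tags and input tags are not independent here.

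At 10 h over 2 h the lowest ratios were in Klf10 (17.5 against 138.0 tags, log2 -2.18), Per1 (14.8 against 74.9, log2 -2.12), Mfsd2a (177.3 against 425.3, log2 -2.07), Hspa8 (38.9 against 660.9, log2 -1.74) and Herpud1 (100.7 against 258.4, log2 -1.63). The same 2 h peak of Hspa8 also overlapped a second 10 h peak, of 78.8 tags, at log2 -0.30. Klf10 is a growth-factor and glucose-responsive transcription factor and Herpud1 a gene of endoplasmic reticulum stress. Among the highest were Zfp574 (71.7 against 21.8 tags, log2 2.09), Hnrnpl (117.6 against 15.6, log2 1.78, and 0.13 against its larger 2 h peak of 55.9 tags) and Scd1 (475.0 against 27.0, log2 1.77). At 2 h over fasted Hnrnpl was lowest (15.6 against 148.8 tags, log2 -2.12), but its larger 2 h peak over the same fasted peak stood at log2 -0.48 (55.9 against 148.8 tags). Khk (77.3 against 30.9, log2 1.32) and Hyou1, an endoplasmic reticulum chaperone (81.6 against 16.2, log2 1.32), were among the highest. At 10 h over fasted Pabpc1 was lowest (14.8 against 591.5 tags, log2 -2.24), with a larger 10 h peak over the same fasted peak at log2 -0.71 (100.1 against 591.5 tags). Cyp2u1 was highest (90.3 against 11.9, log2 1.87), followed by Rgn, regucalcin (114.9 against 25.2, log2 1.78).

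**Figure D5:**
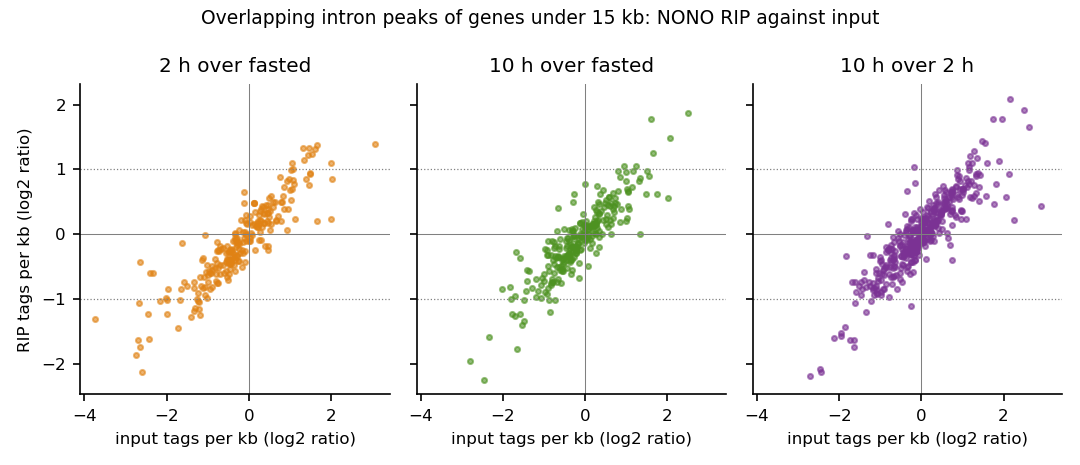
Log2 ratio of RIP tags per kb against log2 ratio of input tags per kb for overlapping peaks of short-gene introns, in 2 h over fasted, 10 h over fasted and 10 h over 2 h; dotted lines mark 2-fold. Most points sit near 0 on the vertical axis, and those beyond the dotted lines lie on the same side for input in nearly all cases.

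IgG alone marked 327 host genes, 260 of which had no peak of any kind in a NONO list. The same count for longer genes is not given here, so these numbers have no background. The leading ones were chosen for their IgG tags. Tat, tyrosine aminotransferase, had no NONO intron peak, beside a single 2 h peak of 539.6 tags that did not meet the rule, and 3806.1 tags against 1627.8 input tags in 3 intron peaks with IgG. Ttr, transthyretin, had no NONO peak and 878.6 tags with IgG, and Fgg, the fibrinogen gamma chain, no NONO peak and 485.9 tags with IgG. Cyp7a1, the rate-limiting enzyme of bile acid synthesis, had 261.7 tags at 2 h, 199.7 at 10 h and 771.7 with IgG, and Cyp2e1, a P450 of ethanol and drug metabolism, 307.0 at 10 h and 701.3 with IgG. Insig1, an endoplasmic reticulum sterol sensor, had 284.8 tags and Sod1, copper-zinc superoxide dismutase, 325.9 tags with IgG alone. In Cyp7a1 and Cyp2e1 the IgG tags were higher than those at any NONO time.

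By gene function, members of 10 functional lists under 15 kb were spread over the lists, and with few hosts each list is described by its counts. Plasma protein and apolipoprotein genes had 44 members under 15 kb, of which 5 were hosts in fasted liver, 8 at 2 h, 8 at 10 h and 15 with IgG, against 5.60%, 8.39%, 8.24% and 9.62% of all short genes. P450, bile acid and xenobiotic genes had 5, 10, 11 and 7 hosts among 19, and fasting and glucose genes 4, 9, 8 and 9 among 23. Splicing factors had 7, 9, 12 and 9 among 28, ribosomal and translation genes 6, 11, 10 and 16 among 71, and oxidative phosphorylation genes 7, 8, 9 and 13 among 33. Complement genes had 4 hosts in each list among 12, amino acid and urea cycle genes 1, 3, 2 and 4 among 12, and lipogenesis and sterol genes 2, 2, 4 and 6 among 11. Where IgG peaks over the peak were removed, the NONO hosts were 4, 6 and 8 for plasma proteins, 4, 8 and 6 for P450 genes and 1, 6 and 5 for fasting and glucose genes.

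The clock genes had 7 members under 15 kb. Hosts were 3, 3 and 3 in the NONO lists and 2 with IgG. Per1 had 20 tags fasted, 155.5 tags in 3 peaks at 2 h, 14.8 tags at 10 h and 45.8 with IgG, so the 2 h tags were far above the others. Input over these peaks was also highest at 2 h, with 9.47, 61.2 and 5.04 tags at the 3 times and 16.2 with IgG. Tags over input were 2.11, 2.54 and 2.93 at the 3 times and 2.83 with IgG, so this ratio was not highest at 2 h. The 2 larger 2 h peaks of Per1 had no IgG peak over them. Nfil3, a repressor of D-box genes, had 34.7, 140.8 and 111.0 tags at the 3 times and 36.8 with IgG. Dbp had 20.9 and 24.6 tags at the fasted and 10 h times, and Nr1d1, encoding REV-ERBα, 17.1 at 2 h alone. No IgG peak lay over Dbp or Nr1d1.

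The tissue was labelled liver nuclei. Of 6 hepatocyte marker genes, Ahsg was a host at all 3 times, Fgb at 10 h, Cyp2e1 at 10 h and with IgG and Ttr with IgG, while Apoa1 had no peak of this kind and Alb, at 15706 bp, lies beyond the length limit. Kupffer cell markers had 2, 0 and 3 hosts of 10 under 15 kb and 0 with IgG, at 28.0 tags fasted and 60.8 at 10 h in all, endothelial markers 1 at 10 h (Clec4g, 52.5 tags) and 1 with IgG, stellate markers 2 with IgG alone (79.5 tags), and cholangiocyte, lymphocyte and erythroid markers none. In a bulk sample fewer cells of a type and less RNA per cell cannot be told apart.

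The length limit of 15 kb cut through a continuous range. Genes of 14 to 15 kb had 120 intron peaks in fasted liver, 219 at 2 h, 176 at 10 h and 197 with IgG, in 424 genes, and genes of 15 to 16 kb 107, 201, 189 and 208 in 394 genes. The median peak held 17.4, 16.1, 17.5 and 11.6 tags inside the limit and 19.0, 17.1, 20.2 and 13.4 outside.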

How the data were processed

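Anti-NONO and IgG RIP libraries and their inputs from liver nuclei, 8 in all, were sequenced by the authors with a strand-keeping total RNA kit after removal of ribosomal RNA, per the labels' protocols. FastQC 0.11.2, STAR 2.4.0k, HOMER and mm10 are named in the submitters' processing notes. Per the file headers, HOMER called peaks in 500 bp windows, joined within 1000 bp, on both strands together, for each RIP library against its own input. The deposited signal is tags per 10000000 library tags, and in the fasted and 2 h lists the authors scaled RIP tags to the input library, in the others the input to the RIP. The fold deposited per peak is a ratio that the authors formed from RIP and input tags, the deposited HOMER score served only to rank peaks, and the deposited p-value was not used. Reads were not used here.

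From these files, input per 10000000 tags was computed as the peak's normalised tags times input over RIP tags. Peaks were laid on GENCODE vM21 by their midpoint. Peaks were said to meet when they overlapped by 1 bp, and shares carry 95% exact (Clopper-Pearson) intervals. With 1 library per group no test was run. Total tags were 18275033 to 21091048 per RIP library, and the tag threshold of 11 or 8 limits how weak a peak can be seen. Samples were grouped by their titles.

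Members and the 15 gene lists were chosen with earlier results of these data known. Named genes are, per RIP list, the 6 hosts with most tags and the 4 with the highest fold at 5 or more tags of input. They are also the 8 hosts at all 3 times with no IgG peak, the 5 leading IgG-only hosts, the 5 largest differences on each side per pair of times and up to 4 genes per list. Not all of these are described (1 gene that the rule names is not reported here), and genes named from overlapping peaks or small RNAs were chosen after their values were seen. Alternatives were other gene lengths, exon rules, fold and input limits, list lengths and overlaps. On simulated data all 1500 planted overlaps were found and a direct count gave the same membership for 2000 peaks. The work used Python 3.11.15, numpy 2.4.6, pandas 2.3.3, scipy 1.17.1 and matplotlib 3.10.9.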

Additional observations from a re-analysis of the deposited data

How the results depend on the processing

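No paired analysis was possible because no group holds a second library, and for the same reason no replicate could be left out. Of 292 recomputed summary values 180 were labelled the same and 112 moved. The moved values are all given here, in the order fasted, 2 h, 10 h and IgG unless said otherwise. Medians and shares were labelled by their spread. Counts of peaks, hosts and 2-fold changes were labelled by a fixed limit on their ratio to the main count, and not by an interval. With lists of equal length, 978 IgG peaks were thus labelled the same as the 1286 of the main rule. Counting exons of protein-coding genes only moved none of the summary values. Values per named gene moved in 415 of 1854 cases, and 131 were at 0 at 3-fold or more and 133 in genes under 10 kb.

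In genes under 10 kb there were 224, 381, 411 and 524 peaks in 207, 344, 367 and 458 hosts, IgG medians of 14.2 tags, 4.58 input tags and 3.17-fold, and 9.73% of 10 h peaks at all 3 times. Peaks 2-fold higher and lower were 5 and 6 at 2 h over fasted, 2 and 2 at 10 h over fasted, and 4 and 10 at 10 h over 2 h. In genes under 20 kb there were 1270, 2157, 2023 and 2309 peaks in 970, 1408, 1349 and 1502 hosts, with 44 lower at 2 h over fasted, 17 higher and 24 lower at 10 h over fasted, and 41 higher and 25 lower at 10 h over 2 h.

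With no exon base in the peak, 10 h medians were 15.3 tags and 5.48 input tags, and IgG had 845 peaks with medians of 11.1 tags, 3.06 input tags and 3.53-fold. The IgG-free share at 10 h was 76.8%, and 11 peaks were lower at 2 h over fasted.

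At 3-fold or more over input there were 294, 530, 483 and 751 peaks in 270, 475, 423 and 636 hosts, with medians of 10.5, 9.01, 10.4 and 8.42 tags, 2.63, 2.49, 2.52 and 2.00 input tags and 3.77, 4.05, 3.90 and 4.51-fold. IgG-free shares were 87.8%, 85.8% and 87.2%, and shares at all 3 times 6.80%, 3.77% and 4.55%. Higher and lower peaks were 1 and 2 at 2 h over fasted, 1 and 0 at 10 h over fasted, and 3 and 1 at 10 h over 2 h.

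With lists of equal length, medians at 2 h, 10 h and IgG were 22.3, 20.2 and 16.3 tags, 8.98, 8.41 and 5.57 input tags and 2.5, 2.60 and 2.87-fold. The fasted IgG-free share was 84.6%, its share at all 3 times 14.96%, and 10 peaks were lower at 2 h over fasted. With at least 5 input tags at the depth of the RIP library, medians were 19.5, 20.9, 20.8 and 20.5 tags, 7.89, 8.45, 8.43 and 8.11 input tags and 2.61, 2.60, 2.60 and 2.65-fold, with 767 IgG peaks in 607 hosts. IgG-free shares were 87.4%, 78.5% and 76.8%, and 13 peaks were lower at 2 h over fasted.

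With an overlap of at least 0.5 of the peak, IgG-free shares were 90.6%, 84.7% and 83.2%, shares at all 3 times 11.4%, 6.30% and 6.85%, and higher peaks 2 at 10 h over fasted and 5, beside 11 lower, at 10 h over 2 h. With IgG peaks of at least 11 tags, IgG medians were 14.2 tags, 4.58 input tags and 3.12-fold. Tags outside the most tagged peak, an alternative chosen after seeing the data, gave an IgG median of 20.2 tags. For fewer peaks under a stricter limit the cause lies in the limit itself, and for the others the cause was not tested.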
